A study of Mus musculus with 8 samples.

Results

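The 8 genes of the cytosolic chaperonin CCT (also called TRiC) were examined in mouse embryonic fibroblasts (MEFs) that carry Cct8 either in the normal dose or with an extra copy. The members were the genes of the subunits: Tcp1 (alpha), Cct2 (beta), Cct3 (gamma), Cct4 (delta), Cct5 (epsilon), Cct6a (zeta), Cct7 (eta) and Cct8 (theta). They were chosen by name, as the subunits of 1 complex, with earlier results of these data known. They are 8 of the 19493 endogenous genes in the count table. All 8 passed the filter on low counts. The data are RNA-seq libraries of 8 MEF cultures, 4 wild-type (WT) and 4 Dp1Tyb, made from E14.5 embryos with the strain background C57BL/6J.129P2. Dp1Tyb stands for Dp(16Lipi-Zbtb21)1TybEmcf, a duplication on mouse chromosome 16 that models Down syndrome. The Dp1Tyb cultures carry 3 copies of that segment in every cell, and the WT cultures carry 2. Both genotypes came from littermates without head and viscera, were passaged in medium with serum and 2-mercaptoethanol, and received synthetic ERCC RNAs as spike-ins when the RNA was extracted. Whether each culture came from its own embryo is not given by the labels, so the tests concern these cultures and not known embryos.

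The CCT complex is a barrel of stacked rings in which each ring holds 1 of every subunit, in a fixed order. Each subunit binds and hydrolyses ATP and contributes its own surface to the folding chamber. Actins and tubulins are its best known obligate substrates, and prefoldin hands many unfolded chains to it. Because every ring takes the subunits in equal number, the genes offer a way to view 1 duplicated part of a complex beside 7 unduplicated parts.

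Cct8 (ENSMUSG00000025613) lies on the minus strand of chromosome 16 at 87483326 to 87495873 in GRCm38, inside the duplicated segment. The other subunit genes lie on 7 other chromosomes: Cct3 on chromosome 3, Cct6a on 5, Cct7 on 6, Cct2 on 10, Cct4 on 11, Cct5 on 15 and Tcp1 on 17. RefSeq promoter windows of GRCm38.p6 were found for 7 members, with none matched for Cct4. To show how the duplicated gene compares with unduplicated partners, the 250 bases before the start are given 5′ to 3′ for Cct8 on the minus strand at chr16:87495870-87496119, Cct2 on the minus strand at chr10:117063853-117064102 and Cct7 on the plus strand at chr6:85451255-85451504. Capitals mark matches on either strand to the box with the letters CCAAT, to the GC box GGGCGG, to the ETS core CCGGAAG, to the heat shock element letters GAANNTTC or TTCNNGAA and to the ZNF143 core ACTACAA, and no match overlaps another in these windows.
Cct8: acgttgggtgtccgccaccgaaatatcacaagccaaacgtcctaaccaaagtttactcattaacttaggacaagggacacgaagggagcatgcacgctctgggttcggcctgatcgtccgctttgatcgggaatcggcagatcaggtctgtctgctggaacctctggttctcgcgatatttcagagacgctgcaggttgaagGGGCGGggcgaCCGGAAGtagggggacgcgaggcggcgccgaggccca
Cct2: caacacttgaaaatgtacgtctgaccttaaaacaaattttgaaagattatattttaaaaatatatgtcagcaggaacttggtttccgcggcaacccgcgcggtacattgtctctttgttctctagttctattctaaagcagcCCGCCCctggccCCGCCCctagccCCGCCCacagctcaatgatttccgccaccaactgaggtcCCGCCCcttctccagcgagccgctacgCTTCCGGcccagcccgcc
Cct7: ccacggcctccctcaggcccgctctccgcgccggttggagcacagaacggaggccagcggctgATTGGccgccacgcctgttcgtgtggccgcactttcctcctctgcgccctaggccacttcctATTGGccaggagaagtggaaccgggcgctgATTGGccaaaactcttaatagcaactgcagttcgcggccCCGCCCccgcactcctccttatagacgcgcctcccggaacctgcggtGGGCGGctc
The Cct8 window holds 1 GC box and 1 ETS match and no CCAAT letters. In the Cct2 window there are 4 GC boxes and 1 ETS match, while that of Cct7 holds 2 GC boxes and 3 CCAAT matches. The 7 matched members have 9 windows, since Cct2 and Cct5 have 2 each, and 8 of the 9 hold a GC box, against 32.7% of all 32851 windows of this length. The window without one is the second of Cct5. GC content was 45.2% to 66.8% in the 9 windows, beside a median of 52.4% over all windows. Only the first window of Cct5 lay below that median. An ETS match, held by 6.91% of all windows, occurred in 2 of the 9, that of Cct8 and the printed one of Cct2. CCAAT, held by 33.8%, was found in 4 of the 9, those of Tcp1, Cct3, Cct6a and Cct7. Heat shock element letters occurred in 1 window of Cct2 and 1 of Cct5, with shares of 6.69% and 7.17% over all windows for GAANNTTC and TTCNNGAA. ACTACAA was in none of the members' windows and in 2.81% of all. These are matches of letters only.

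Endogenous counts came to 17542855 to 26220207 per library and spike-in counts to 156045 to 347182. A pair of scalings was used throughout, because they ask different questions. Spike-in scaling, which the study's methods name, compares mRNA against RNA added to a fixed number of cells, and its factors ranged from 0.633 to 1.42. Relative scaling (TMM over endogenous genes) compares each mRNA with the bulk of the transcriptome, with factors of 0.830 to 1.24. In bulk RNA, fewer cells of a type and less RNA per cell cannot be told apart. Over the 16470 tested genes the median log2 fold change was 0.01 on the relative scale and 0.11 on the spike-in scale. In the edgeR fit on the spike-in scale, abundant genes had nearly the same SE whatever their own spread. It was 0.32 for each of the actins Actb and Acta2 and the proliferation gene Mki67, against 0.16, 0.56 and 0.53 on the relative scale. Spike-in p-values and intervals therefore reflect a spread pooled over genes more than that of each gene. All 10 fibroblast markers had counts in every library, and raw counts of Col1a1, a collagen of fibroblasts, were 70941 to 197756. The relative-normalised sum of 6 leukocyte markers was 2117 to 2665 in WT and 1190.1 to 1908 in Dp1Tyb, and none of these markers was at 0. All 6 had a log2 fold change below 0 in both scalings (median -0.61 relative and -0.49 spike-in), 5 of them with an unadjusted p under 0.05 on the relative scale (4.27% of all tested genes) and 1 on the spike-in scale (1.17% of all tested genes). Sums of other markers overlapped between WT and Dp1Tyb: 711 to 1177 and 664 to 1648 for 5 endothelial genes, 245 to 854 and 132 to 1187 for the skeletal muscle genes with counts, and 93.4 to 310.2 and 64.6 to 236 for 4 epithelial genes. The 4 tested skeletal muscle markers all had a log2 fold change above 0 (median 0.82 relative and 0.87 spike-in). Dp1Tyb replicate 1 nevertheless had the lowest muscle sum of the 8 libraries, 132. An unadjusted p under 0.05 (edgeR) was found for 3 on the spike-in scale (1.17% of all tested genes) and for none on the relative scale (4.27%). Those 3, Myh3, Des and Acta1, had spike-in SEs of 0.43, 0.35 and 0.39, against 0.55, 0.63 and 0.83 on the relative scale. The part of leukocyte and muscle transcripts in the CCT values was not tested.

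Cct8 was the only subunit whose libraries separated the genotypes on the relative scale. On that scale, the WT libraries (replicates 1 to 4, the order used throughout) held 5322, 6997, 7039 and 7989.6 normalised reads, and those of Dp1Tyb held 11294, 12816, 10251 and 11002. Every Dp1Tyb library was above every WT library. The mean was 6837 ± 1109 (SD, n = 4) in WT and 11341 ± 1077 (SD, n = 4) in Dp1Tyb, a ratio of 1.66. On the spike-in scale Cct8 was 6313, 6175, 5020.1 and 9343 in WT, and 13603, 8812, 10789.5 and 14457 in Dp1Tyb. There the groups overlapped in 1 library of each, since WT replicate 4 was above Dp1Tyb replicate 2. The spike-normalised means were 6713 ± 1847 (SD, n = 4) and 11915 ± 2595 (SD, n = 4), a ratio of 1.78.

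The fitted log2 fold change of Cct8 was 0.73 (SE 0.14, 95% interval 0.42 to 1.04) with relative scaling and 0.83 (SE 0.32, 0.20 to 1.46) with spike-in scaling. Both intervals lie above 0 and both contain the ratio of 3 to 2 copies. The quasi-likelihood test of edgeR gave an unadjusted p of 0.000358 and 0.0101, and after Benjamini-Hochberg adjustment over all genes 0.228 and 0.9998, so Cct8 was not called at 0.05 in either. With DESeq2 and its own size factors the log2 fold change was 0.74 and the adjusted p 0.00209, which was a call. Over the alternatives tried, the adjusted p of Cct8 ranged from 0.00209 to 0.989 with relative scaling and from 0.302 to 1.00 with spike-in scaling. Cct8 shares 192 exonic bases with Usp16, a duplicated gene on the opposite strand, and the strand option of the counting is not given in the sources used here.

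None of the 8 subunits was called by edgeR in either scaling. Calls over all tested genes numbered 2 on the spike-in scale (0.0121%) and 3 on the relative scale (0.0182%). An unadjusted p under 0.05 was found for 1 of the 8 subunits, Cct8, in each scaling, beside 1.17% of all tested genes on the spike-in scale (0.85% higher in Dp1Tyb) and 4.27% on the relative scale (1.74% higher in Dp1Tyb). DESeq2 called 1 subunit, again Cct8, with its own size factors (54 genes or 0.328% of all tested) and none with spike-in factors. Every Dp1Tyb library was above every WT library for 1 of the 8 subunits on the relative scale, beside 1.64% of all tested genes, and for none on the spike-in scale, beside 0.285%.

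**Figure D1:**
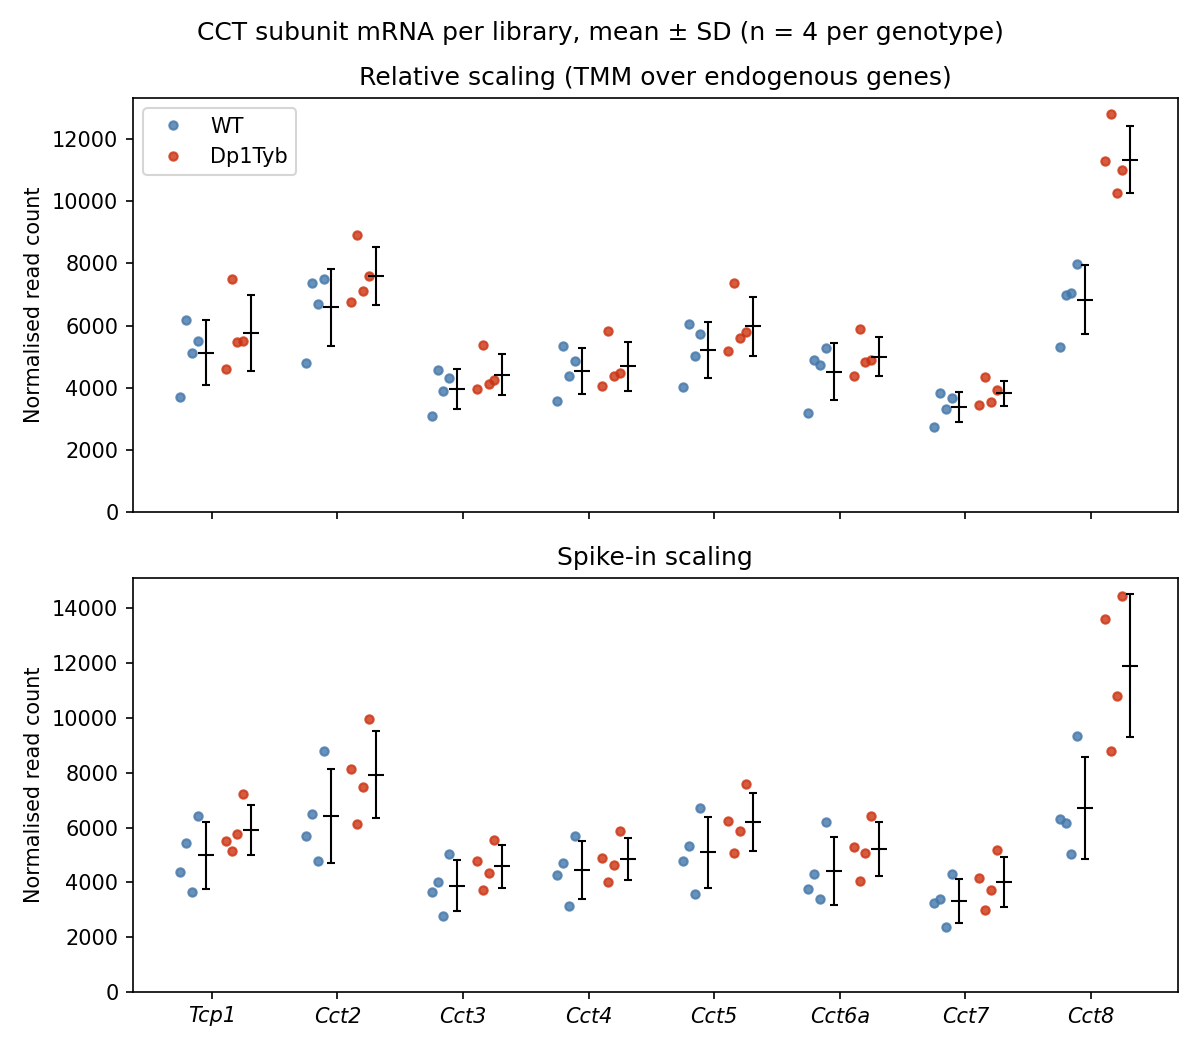
Normalised read counts (linear axis from 0) of the 8 CCT subunits, with 1 point per library and bars for mean ± SD of 4 libraries per genotype, for relative scaling (top) and spike-in scaling (bottom). Cct8 separates the genotypes on the relative scale, at 5322 to 7989.6 in WT and 10251 to 12816 in Dp1Tyb, while each of the other subunits overlaps.

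The 7 unduplicated subunits had positive fold changes, none of which passed the test with libraries taken as unpaired. Their log2 fold changes ran from 0.05 for Cct4 to 0.21 for Cct2 with relative scaling, with a median of 0.17 beside 0.01 for all tested genes. With spike-in scaling they ran from 0.13 to 0.30, with a median of 0.25 beside 0.11. A value above 0 was seen for all 7 in both scalings, as for 51.2% of all tested genes with relative and 70.4% with spike-in scaling. Their unadjusted p-values were 0.207 to 0.770 with relative scaling and 0.341 to 0.691 with spike-in scaling (edgeR). The mean of the 7 log2 fold changes on the relative scale, 0.16, went to 0.05 when WT replicate 1 was left out, to 0.05 without Dp1Tyb replicate 2 and to 0.24 without WT replicate 2. On the spike-in scale that mean, 0.24, went to 0.12 when WT replicate 3 was left out, to 0.13 without Dp1Tyb replicate 4 and to 0.41 without WT replicate 4.

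Cct2, the beta subunit, had the highest counts of the unduplicated subunits. Its relative-normalised counts were 4784, 7356, 6682 and 7507 in WT, and 6758, 8919, 7113 and 7595 in Dp1Tyb. The 2 highest libraries were Dp1Tyb replicates 2 and 4, but the other Dp1Tyb values lay among those of WT. Its log2 fold change was 0.21 (SE 0.16, 95% interval -0.14 to 0.56).
Cct5, the epsilon subunit, had relative-normalised counts of 4017, 6055, 5032 and 5733 in WT, and 5181, 7356, 5584 and 5781 in Dp1Tyb. Only Dp1Tyb replicate 2 was above all WT libraries. The log2 fold change of Cct5 was 0.20 (SE 0.16, interval -0.15 to 0.54).
Tcp1, the alpha subunit after which the chaperonin family is named, was at 3706, 6178, 5118 and 5498 in WT, and 4588, 7483, 5483 and 5490.2 in Dp1Tyb. Its log2 fold change was 0.17 (SE 0.19, interval -0.24 to 0.58). The SD of its log2 counts within genotypes was the widest of the 8 on the relative scale (0.30) and the narrowest on the spike-in scale (0.29). Tcp1 shares 571 exonic bases with Acat3 and 141 with Mrpl18, both on the opposite strand, and has a processed pseudogene. It also shares 138 with the snoRNA gene Gm26130 on its own strand.

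Cct4, the delta subunit, had relative-normalised counts of 3583, 5329.7, 4389.6 and 4866 in WT, and 4062, 5835, 4393 and 4466 in Dp1Tyb. The ranges of both genotypes largely overlapped, and the log2 fold change was 0.05 (SE 0.15, interval -0.29 to 0.39). The sign of this value was not stable, being -0.05 without WT replicate 1 and -0.08 without Dp1Tyb replicate 2, and on the spike-in scale -0.011 without WT replicate 3.
Cct6a, the zeta subunit, was at 3172, 4893, 4732 and 5291 in WT, and 4389, 5883, 4818 and 4896 in Dp1Tyb. WT replicate 1 stood lowest and the other WT libraries lay within the range of Dp1Tyb (log2 fold change 0.14, SE 0.16, interval -0.22 to 0.51). Cct6a shares 452 exonic bases with Psph on the opposite strand and 102 with the snoRNA gene Snora15 on its own strand.
Cct3, the gamma subunit, had 3085, 4556, 3899 and 4311 relative-normalised counts in WT, and 3957, 5388, 4109 and 4234 in Dp1Tyb. As for the other unduplicated subunits, the lowest library was WT replicate 1 and the highest Dp1Tyb replicate 2 (log2 fold change 0.16, SE 0.15, interval -0.17 to 0.49). Cct3 also has a processed pseudogene.
Cct7, the eta subunit, had the lowest counts, at 2731, 3835, 3315 and 3667 in WT, and 3458, 4336, 3540.5 and 3938 in Dp1Tyb. Its log2 fold change was 0.17 (SE 0.13, interval -0.11 to 0.46), and 214 of its exonic bases are shared with Pradc1 on the opposite strand.

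**Figure D2:**
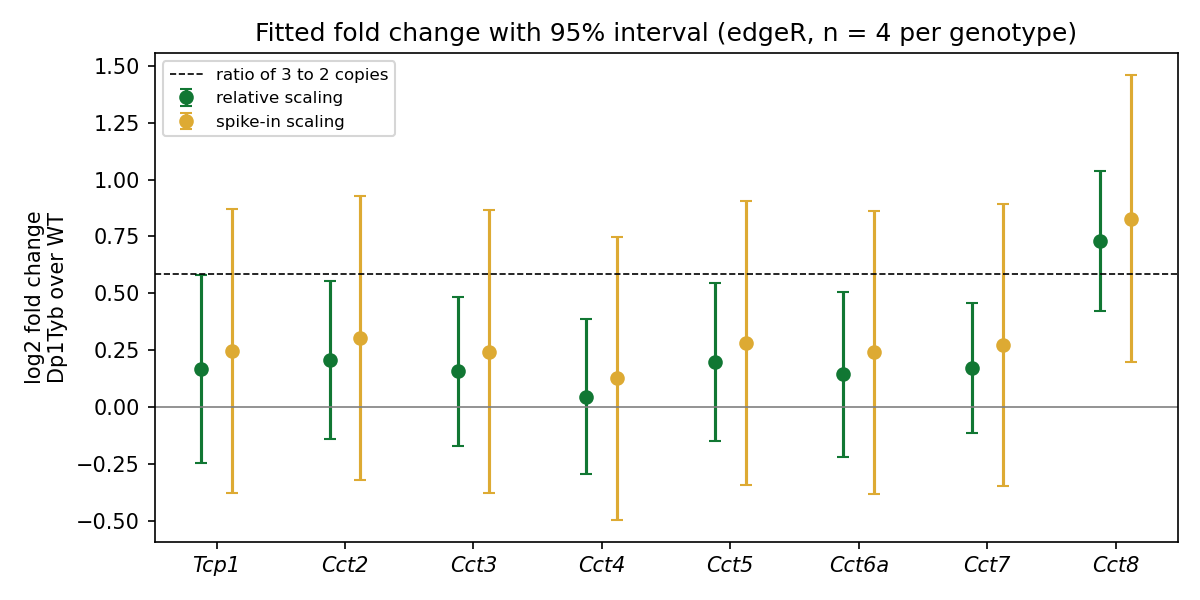
Fitted log2 fold change of Dp1Tyb over WT (points) with 95% intervals (bars) from edgeR for each CCT subunit, with relative and spike-in scaling, and a dashed line at the ratio of 3 to 2 copies. Only the intervals of Cct8 lie above 0 (0.42 to 1.04 and 0.20 to 1.46), and those of the other 7 contain 0.

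For the 7 unduplicated subunits, libraries differed more in the common level than in the proportions between subunits. Summed over the 7 unduplicated subunits, relative-normalised counts were 25078, 38202, 33167 and 36873 in WT, and 32392, 45200.3, 35039.5 and 36401 in Dp1Tyb. WT replicate 1 was the lowest and Dp1Tyb replicate 2 the highest. Expressed as the mean log2 deviation from the 8-library mean, the 7 were at -0.47 in WT replicate 1 and at 0.37 in Dp1Tyb replicate 2. A sum of 15 proliferation genes was 21365, 49115, 24565 and 23830 in WT, and 9830.4, 45844, 36333 and 24410 in Dp1Tyb. In each genotype, replicate 1 had the lowest and replicate 2 the highest value of both sums on this scale. The order was another on the spike-in scale, where the 7 subunits summed to 29751, 33714, 23653 and 43117 in WT, and 39014, 31079, 36879 and 47832 in Dp1Tyb. The part of proliferation in the CCT values was not tested.

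Within a genotype, the SD of log2 counts was 0.19 to 0.30 for the 7 unduplicated subunits, with a median of 0.24. Once each was divided by the geometric mean of the 7 in its library, the SD was 0.03 to 0.08, with a median of 0.04. The mean of the 7 includes the gene itself, which lowers this value. For all tested genes the same medians were 0.28 and 0.38, and for the 4364 abundant genes (mean count 1000 or more) they were 0.19 and 0.26. Division by the mean of the 7 thus narrowed the subunits and widened the typical gene. For Cct8, which is not part of that mean, the SD went from 0.20 to 0.12.

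**Figure D3:**
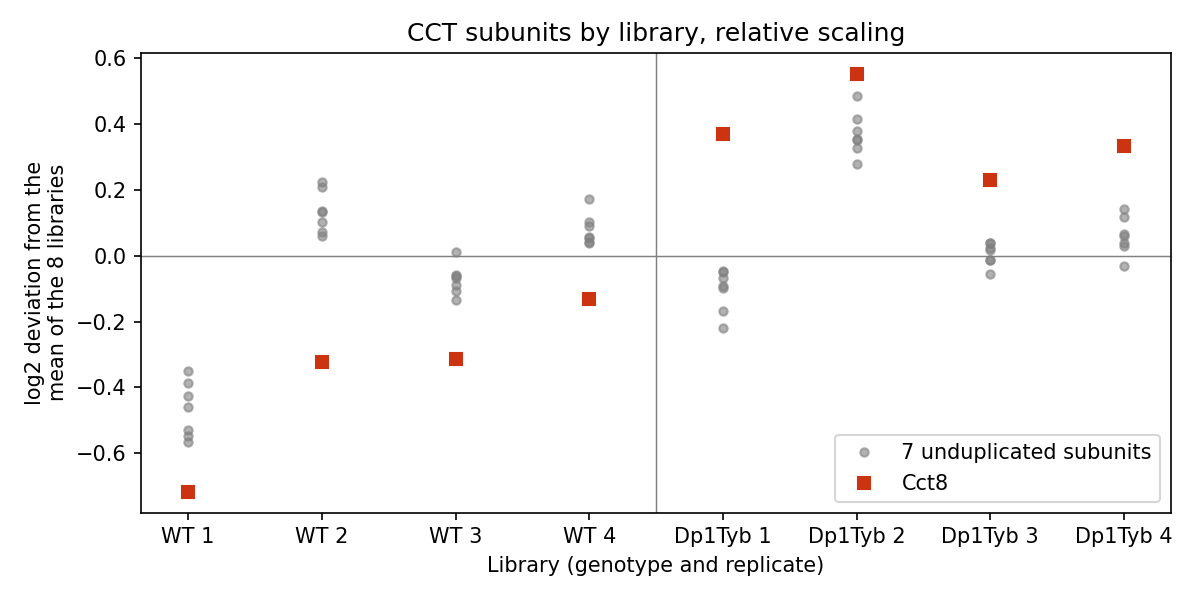
Log2 deviation of each CCT subunit from its own mean over the 8 libraries (relative scaling), by library, with squares for Cct8 and circles for the 7 unduplicated subunits. The circles of a library sit close together, with means from -0.47 (WT replicate 1) to 0.37 (Dp1Tyb replicate 2), and Cct8 lies below them in every WT library and above them in every Dp1Tyb library.

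Setting Cct8 against the mean of the other 7 in the same library removes the scaling from the comparison. The ratio was 1.51, 1.31, 1.52 and 1.55 in WT, and 2.49, 2.03, 2.10 and 2.16 in Dp1Tyb. All Dp1Tyb libraries were above all WT libraries. The mean log2 ratio was 0.55 ± 0.11 (SD, n = 4) in WT and 1.13 ± 0.13 (SD, n = 4) in Dp1Tyb, and the difference of 0.58 equals 1.49-fold. Leaving out 1 library moved the difference between 0.51 and 0.61. Taken over the same denominator, 43 of the 16470 tested genes (0.261%) had every Dp1Tyb library above every WT library. With Cct8 counted, 6 (0.0364%) had a gap at least as wide as that of Cct8. The 7 genes of the denominator had positive fold changes themselves, and upward separation was rarer here than on the relative scale (1.64%). Downward separation over this denominator occurred for 289 genes (1.75%). In the duplicated segment the share with every Dp1Tyb library above was 24 of 112 tested genes (21.4%).

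As a share of all reads on the 8 subunits, Cct8 took 17.5%, 15.5%, 17.5% and 17.8% in WT, and 25.9%, 22.1%, 22.6% and 23.2% in Dp1Tyb. The Wilson 95% interval of a single library was at most 0.42 points to either side, which covers counting error only. The mean share was 17.1% ± 1.07 (SD, n = 4) in WT and 23.4% ± 1.67 (SD, n = 4) in Dp1Tyb, a difference of 6.37 points. These are shares of reads and not of molecules, since the transcripts differ in length.

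Among the 7 unduplicated subunits, 6 kept overlapping ratios to their common mean in both genotypes. Their differences between genotypes, on the log2 scale, were -0.00075 for Cct3, -0.0015 for Cct6a, 0.01 for Tcp1, 0.02 for Cct7, 0.04 for Cct5 and 0.06 for Cct2. Cct4 was the exception, chosen here after its values were seen. Its log2 ratio was 0.02, -0.01, -0.08 and -0.08 in WT, and -0.16, -0.11, -0.16 and -0.19 in Dp1Tyb. Every Dp1Tyb library was lower than every WT library, by 0.12 in the means, and such a downward separation occurred for 289 of all tested genes (1.75%). That share is not a like background, since Cct4 is part of the mean. The within-genotype SD of its log2 ratio was 0.04, beside a median of 0.38 over all tested genes.

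**Figure D4:**
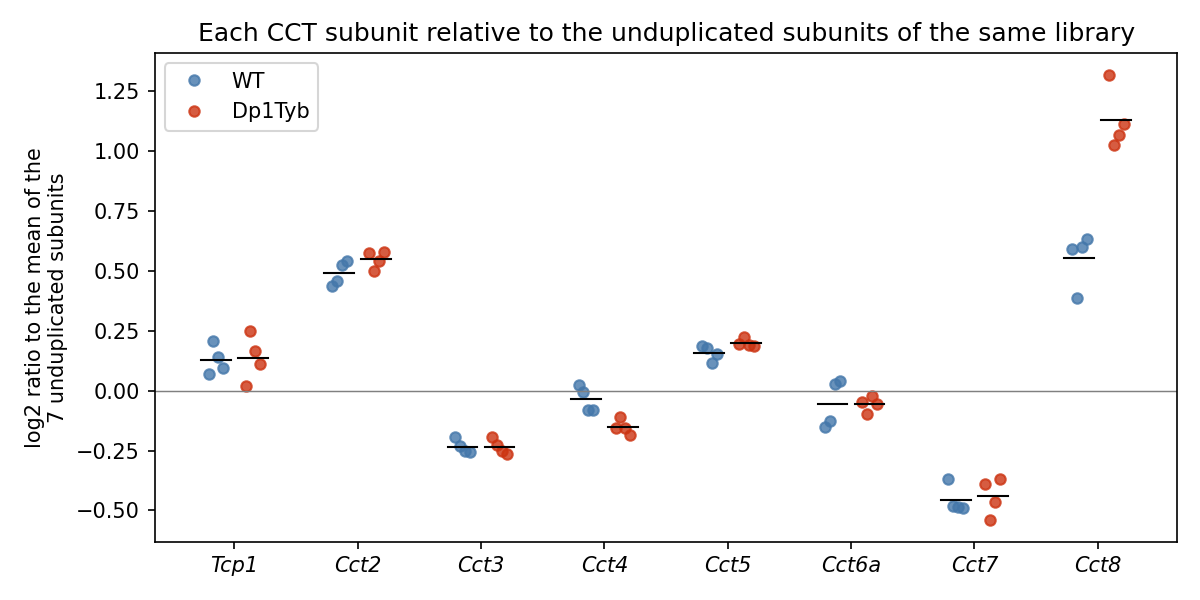
Log2 ratio of each CCT subunit to the geometric mean of the 7 unduplicated subunits of the same library, with 1 point per library and a line at the mean of 4 libraries per genotype. Cct8 moves from a mean of 0.55 to 1.13, Cct4 from -0.04 to -0.15, and the other subunits overlap between genotypes.

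Levels between genes were compared as RPKM on merged exon lengths, from relative-scaled libraries. In WT the order was Cct2 (123 ± 23.4, SD, n = 4), Cct8 (106 ± 17.2), Cct5 (90.1 ± 15.6), Cct6a (59.8 ± 12.3), Cct4 (51.7 ± 8.49), Tcp1 (48.8 ± 9.92), Cct3 (29.8 ± 4.85) and Cct7 (23.9 ± 3.45). Neighbours in this order overlapped in their ranges over libraries except Tcp1 and Cct3, but within each of the 4 WT libraries the order was the same for every neighbouring pair. In Dp1Tyb, Cct8 came first at 176 ± 16.7, ahead of Cct2 at 142 ± 17.7, and although the ranges of these 2 genes overlapped, Cct8 exceeded Cct2 within each of the 4 Dp1Tyb libraries and Cct2 exceeded Cct8 within each of the 4 WT libraries. Cct7 was again last at 27.0 ± 2.85. The spread between subunits depended on the length used: the highest RPKM was 5.15 times the lowest in WT with merged exons and 2.42 times with the length of 1 transcript per gene, an alternative chosen after seeing the data. On that second length Cct2 (161) and Cct8 (137) again led and Cct7 (66.4) was last in WT, while Tcp1 (100.3) and Cct3 (95.9) came before Cct6a (88.2) and Cct4 (87.5). Within WT libraries this order was less uniform. Cct8 exceeded Cct5 in 3 of 4, Tcp1 exceeded Cct3 in 3 of 4 and Cct6a exceeded Cct4 in 2 of 4. The other neighbouring pairs kept their order in all 4.

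Cct8 was compared with the genes beside it, which share its extra copy. Of the 10 tested genes nearest to it, 5 on each side, all had a log2 fold change above 0 and 8 had an unadjusted p under 0.05 in each scaling, with none called by edgeR. Over all tested genes, 51.2% were above 0 with relative scaling and 70.4% with spike-in scaling. The shares of all tested genes with such a p were 4.27% and 1.17%. Ltn1, the ubiquitin ligase of stalled ribosomes, was at 2321 ± 146 relative-normalised counts (SD, n = 4) in WT and 3473 ± 342 in Dp1Tyb, a log2 fold change of 0.58 (SE 0.10). Bach1, a haem-binding transcription repressor, was at 2744 ± 323 and 4014 ± 276, with a log2 fold change of 0.55 (SE 0.11). Every Dp1Tyb library was above every WT library for both genes on the relative scale, and also for N6amt1, Rwdd2b, Usp16 and Grik1. That was not so for Adamts5, B130034C11Rik, Map3k7cl and 2810407A14Rik. On the spike-in scale Adamts5 was the only one of the 10 neighbours with separate groups. Usp16, a histone H2A deubiquitinase that overlaps the 3′ end of Cct8, was at 0.59 (SE 0.15).

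The fold changes of the remaining neighbours on the relative log2 scale were 0.61 (SE 0.11) for the methyltransferase gene N6amt1, 0.87 (SE 0.14) for Rwdd2b, 0.73 (SE 0.27) for the aggrecanase gene Adamts5 and 1.19 (SE 0.32) for the kainate receptor gene Grik1. Those of B130034C11Rik (0.94, SE 0.48), Map3k7cl (0.59, SE 0.41) and 2810407A14Rik (0.68, SE 0.28) rested on mean counts of 17.1, 33.8 and 14.6. The value of Cct8, 0.73, lay within the range of its neighbours. Among the 112 tested genes of the duplicated segment, Cct8 ranked 22nd from the highest log2 fold change with relative scaling and 25th with spike-in scaling, beside medians of 0.54 and 0.65. By mean count it ranked 5th there, after App, Son, Slc5a3 and Adamts1, and of the segment's counts it took 5.28% ± 0.77 (SD, n = 4) in WT and 5.80% ± 0.51 (SD, n = 4) in Dp1Tyb. On the relative scale, 42.0% of the segment's tested genes had every Dp1Tyb library above every WT library, and on the spike-in scale 14.3%.

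**Figure D5:**
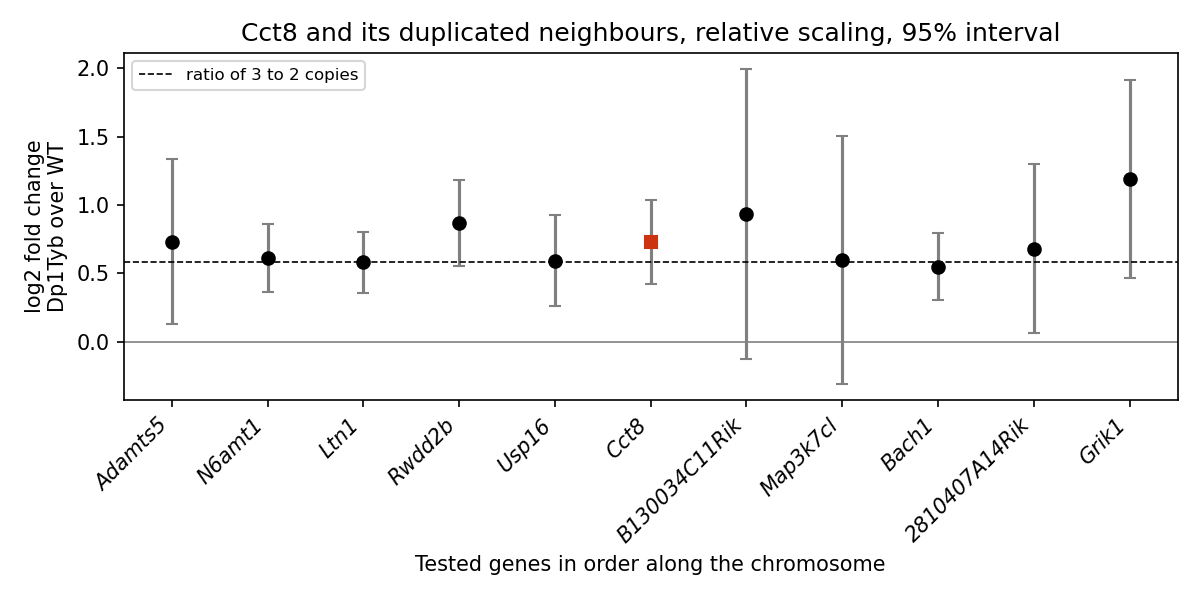
Log2 fold change of Dp1Tyb over WT with 95% interval (edgeR, relative scaling) for Cct8 (square) and the 5 tested genes on each side (circles), in chromosomal order, with a dashed line at the ratio of 3 to 2 copies. The 11 estimates run from 0.55 (Bach1) to 1.19 (Grik1), and the intervals of B130034C11Rik and Map3k7cl contain 0.

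The proteins that work with CCT were described from lists. Each list below is to be read beside all tested genes. Of those, 51.2% were above 0 with relative scaling (median 0.01) and 70.4% with spike-in scaling (median 0.11). Of 15 genes of co-chaperones and tubulin-folding cofactors, which deliver chains to CCT or take them over, 14 had a log2 fold change above 0 in each scaling and none was called. Their median was 0.17 with relative and 0.25 with spike-in scaling, the same to 2 decimals as that of the 7 unduplicated subunits. Pfdn1, a prefoldin subunit, had the smallest p of the list, at 0.33 (SE 0.12, unadjusted p = 0.0217, adjusted p = 0.9995 by edgeR). The prefoldin subunit gene Pfdn2 was at 0.27 (SE 0.14) and Pdcl3, a phosducin-like partner of CCT, at 0.23 (SE 0.15).

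Of 28 genes of CCT substrates, 26 were above 0 with relative scaling (median 0.15) and 27 with spike-in scaling (median 0.21), with none called. The actins Actb and Actg1 had relative log2 fold changes of 0.18 (SE 0.16) and 0.19 (SE 0.18), and the tubulins Tubb5 and Tuba1b of 0.15 (SE 0.24) and 0.08 (SE 0.27). Smallest in p with relative scaling were Mlst8, a component of the mTOR complexes, at 0.25 (SE 0.16), Actr1b of dynactin at 0.16 (SE 0.12) and the beta-tubulin gene Tubb6 at 0.29 (SE 0.23). None of these had an unadjusted p under 0.05 in either scaling. Acta2, the smooth muscle actin, was picked after its values were seen, because it had the largest fold change of the list. It was 0.66 (SE 0.56, unadjusted p = 0.271 by edgeR) with relative scaling. With spike-in scaling it was 0.67 (SE 0.32, unadjusted p = 0.0372 by edgeR), and no other substrate was under 0.05 there. That SE is the same as for Actb and Actg1 (0.32) and does not follow the spread of Acta2. The relative-normalised counts of Acta2 ran from 6890 to 40170 over the libraries.

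Cytosolic heat shock chaperones, which act beside CCT, gave 18 of 21 above 0 with relative scaling (median 0.12) and 21 of 21 with spike-in scaling (median 0.23), again with none called. Hspa8, the constitutive Hsc70, was at 23154 ± 2287 relative-normalised counts (SD, n = 4) in WT and 27075 ± 2153 in Dp1Tyb, a log2 fold change of 0.23 (SE 0.12). Hsp90ab1 was at 0.15 (SE 0.14), Cdc37 at 0.19 (SE 0.11) and Ahsa1 at 0.22 (SE 0.16). In the list of other chaperonins and CCT relatives, 4 of 5 tested genes were above 0 (median 0.11 with relative and 0.19 with spike-in scaling), with the mitochondrial chaperonin genes Hspd1 at 0.13 (SE 0.17) and Hspe1 at 0.11 (SE 0.14) and Bbs12 at 0.12 (SE 0.16). Of the 15 proliferation genes, 8 were above 0 with relative scaling (median 0.00) and 11 with spike-in scaling (median 0.03), and none was called.

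Profiles over the 8 libraries were ranked by Pearson's r on the relative log2 scale among 10963 genes (mean count 100 or more), as a description over libraries that share scaling and genotype. The genes most like Cct8 were Lrrc41 (r = 0.984), Son (0.977), Pgp (0.973), Gabpa (0.973) and Endod1 (0.969), of which Son and Gabpa lie in the duplicated segment. Most like the mean of the 7 unduplicated subunits were Mrfap1 (0.994), Erh (0.994), Gfm1 (0.991) and the proteasome genes Psmc1 (0.989) and Psmd7 (0.989), none of them in the segment. Cct8 itself had r = 0.671 with that mean, whereas the 7 subunits had 0.951 to 0.994 with the mean they form.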

How the data were processed

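Stranded paired-end mRNA libraries with ERCC spike-ins were made from 4 WT and 4 Dp1Tyb MEF cultures. According to the methods, labels and the submitters' processing notes, the authors trimmed reads with Trim Galore, aligned them with TopHat2 2.0.12 to GRCm38 plus the spike-ins, discarded reads with several alignments and counted genes with HTSeq. Reads shared with pseudogenes are therefore lost. The deposited raw counts hold 19493 endogenous genes and 63 spike-ins, with no normalisation. The annotation release and strand option are not given in the sources used here. The authors' normalised table and their DESeq2 table (fold changes and p-values, DESeq2 1.6.3) were not used.

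Groups came from the genotype label. Positions and exon lengths came from GENCODE M21, which matched 19318 gene IDs and left 175 unmatched, and promoter windows from RefSeq. Spike-in factors were medians of ratios over the 63 spike-ins, and relative factors were TMM over endogenous genes. A normalised count is the raw count divided by its factor, with the factors' geometric mean set to 1, and the log2 ratios used a pseudocount of 0.5. Dp1Tyb was compared with WT in edgeR 4.0.16 (R 4.3.3) with its two-sided quasi-likelihood test on 16470 genes kept by filterByExpr, with Benjamini-Hochberg adjustment over these genes and calls at 0.05. The scripts were tested on simulated data. Alternatives were DESeq2 1.42.0, other factors and filters, a replicate block and leaving out each library.

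The subunits and lists were chosen with earlier results of these data known. Besides the 8 subunits, named genes were up to 3 of each pathway list with the smallest unadjusted p under relative scaling, 6 abundant substrates and chaperones, 5 tested neighbours of Cct8 on each side, and the 5 genes most like each profile.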

Additional observations from a re-analysis of the deposited data

Results flagged for a closer look

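The ratio of Cct8 to the mean of the 7 unduplicated subunits had 1 WT library apart from the others. The values were 1.51, 1.31, 1.52 and 1.55, and the gap from WT replicate 2 to the nearest library was 0.835 of the range on the log2 scale, above Dixon's 95% critical value for 4 samples. Chance flags about 1 in 20 groups, and 36 groups were examined.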

How the results depend on the processing

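The log2 difference of Cct8 over the other subunits, 0.58, was 0.51 to 0.61 with 1 library left out, and 0.57 with the summed counts of the other 7 and 0.58 with a pseudocount of 5. Scaling, filter and fit cancel in this ratio, and their 13 alternatives (0.57 to 0.58) are no test of it. The log2 fold change of Cct8 stayed above 0 throughout, at 0.63 to 0.82 with relative and 0.71 to 1.03 with spike-in scaling, and was called under DESeq2 with its own size factors (0.74), where 1 of the 8 subunits and 54 genes in all were called. Leaving out 1 library moved Cct4 between -0.011 (without WT replicate 3) and 0.27 with spike-in scaling, and between -0.077 (without Dp1Tyb replicate 2) and 0.14 with relative scaling, where it was -0.048 without WT replicate 1. Requiring 10 counts in every library left 0 genes called in each scaling by edgeR (156 and 622 at an unadjusted p under 0.05, spike-in and relative). Leaving out 1 library gave 2 to 8 calls with spike-in scaling, against 2, and 1 with relative scaling, against 3. With the replicate number as a block, 9 genes were called with spike-in and 7 with relative scaling, none of them a subunit. In that fit the relative log2 fold changes of the 7 unduplicated subunits had SEs of 0.08 to 0.11 and unadjusted p-values of 0.060 to 0.605 (edgeR). On the relative scale Cct2, Cct5 and Cct7 were higher in Dp1Tyb than in WT for every replicate number. The other unduplicated subunits were lower in Dp1Tyb for replicate 4. With spike-in scaling Cct2, Cct5 and Cct7 were lower in Dp1Tyb for replicate 2. The labels do not say what a number marks. Same-numbered libraries correlated at 0.37, 0.52, 0.03 and 0.33 in their deviations. Among libraries of the other genotype, 6 of the 8 correlated best with their own number, the exceptions being WT replicate 3 and Dp1Tyb replicate 3. The 6 are the pairs numbered 1, 2 and 4, each counted from both sides. Pairing is not given by the design and was not tested. With 1 transcript's length, the highest over the lowest level was 2.42 in WT and 3.03 in Dp1Tyb, against 5.15 and 6.52. The causes of these changes were not tested. With 4 libraries per genotype, the 95% intervals of the unduplicated subunits had upper ends of 0.39 to 0.58 on the relative and 0.75 to 0.93 on the spike-in log2 scale.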
